A study of Mus musculus with 8 samples.

Results

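The 10 genes described here encode subunits of the Polycomb repressive complexes and were followed in newly made RNA of mouse embryonic stem cells carrying a mutant histone H3.3. They were taken by symbol, 6 of PRC2 (Ezh1, Ezh2, Eed, Suz12, Jarid2 and Mtf2) and 4 of PRC1 (Rnf2, Ring1, Pcgf6 and Kdm2b). All 10 were found in each of 4 deposited tables, which together held 16896 genes, 15571 of them in all 4. The RNA was TT-seq RNA, drawn out of total RNA after a 5 min pulse with 500 nM 4-thiouridine (4sU), so that it reflects transcripts made or being made during the pulse. The cells were the male line ES-E14TG2a (E14), and the mutation was K122A, a lysine-to-alanine substitution in H3.3, whose genes H3f3a and H3f3b give 4 alleles per cell. Dual-targeted cells, with 3 mutant alleles, came as 3 lines: clones 1 and 2, which were H3f3a A/A with H3f3b WT/A, and a line that was H3f3a WT/A with H3f3b A/A, called here the H3f3b A/A dual line. Single-targeted cells, with 2 mutant alleles, came as 2 lines, H3f3a A/A with H3f3b WT/WT and H3f3a WT/WT with H3f3b A/A. Wildtype cells gave 3 libraries, which the design calls biological replicates. Each mutant line gave 1 library, so a mutant group varies by line as well as by library, and a line grown from a clone may carry changes of its own. The labels name both a LIF medium and one with added inhibitors and do not tie either to these libraries.

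Polycomb complexes keep developmental genes silent. PRC2 methylates lysine 27 in the tail of histone H3 through the methyltransferases Ezh1 or Ezh2, held in a core with Eed and Suz12. PRC1 attaches ubiquitin to histone H2A through Rnf2 or Ring1, and its makeup is set by which Pcgf protein is bound. In embryonic stem cells both complexes sit on CG-rich promoters of lineage genes, and loss of PRC2 leaves self-renewal possible but disturbs differentiation.

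The start regions of the 3 genes that differed between dual-targeted and wildtype cells (Ezh1, Eed and Jarid2, with values given further on) are shown because Polycomb recruitment in mammals is tied to CG-rich DNA. Each runs 5′ to 3′ from 250 bases before to 50 bases after the most upstream RefSeq start in GRCm38.p6, with each CG dinucleotide in capitals. The Ezh1 region is chr11:101226414-101226713 on the minus strand, the Eed region chr7:89980927-89981226 on the minus strand and the Jarid2 region chr13:44730524-44730823 on the plus strand. The RefSeq and GENCODE starts disagree for Jarid2, whose RefSeq start lies 1300 bases inside the gene as GENCODE annotates it, so its region lies wholly within that gene. The RefSeq start lies 724 bases inside the GENCODE gene for Kdm2b and 311 for Ezh2.
Ezh1: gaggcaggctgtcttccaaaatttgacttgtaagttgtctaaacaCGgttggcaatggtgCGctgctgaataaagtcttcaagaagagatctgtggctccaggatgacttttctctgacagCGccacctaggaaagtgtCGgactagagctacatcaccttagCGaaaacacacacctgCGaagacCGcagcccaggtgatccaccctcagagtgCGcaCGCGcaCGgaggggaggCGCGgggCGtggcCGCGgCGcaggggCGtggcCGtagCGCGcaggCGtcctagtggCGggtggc
Eed: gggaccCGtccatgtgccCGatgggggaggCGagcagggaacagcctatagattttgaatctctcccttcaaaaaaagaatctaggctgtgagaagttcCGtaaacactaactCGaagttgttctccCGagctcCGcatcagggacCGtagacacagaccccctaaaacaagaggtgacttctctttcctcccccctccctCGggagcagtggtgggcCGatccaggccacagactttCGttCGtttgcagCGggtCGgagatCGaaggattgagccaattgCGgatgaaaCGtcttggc
Jarid2: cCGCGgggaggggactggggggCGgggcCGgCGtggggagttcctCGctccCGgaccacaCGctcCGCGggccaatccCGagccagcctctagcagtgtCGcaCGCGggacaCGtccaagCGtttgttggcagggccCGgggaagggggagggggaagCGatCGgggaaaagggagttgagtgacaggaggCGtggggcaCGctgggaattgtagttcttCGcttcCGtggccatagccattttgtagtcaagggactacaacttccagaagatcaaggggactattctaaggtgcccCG
These regions held 23 CG for Ezh1, 17 for Eed and 24 for Jarid2, against a median of 21 over the 10280 promoters of genes measured in all tables. In the Ezh1 region most CG lie in the part nearest the start, and in the Jarid2 region most lie in the upstream part. Of the 10 genes, 9 had more CG than that median. Eed was the exception. Suz12 had the highest number, 41, and 93.4% of promoters held fewer.

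The regions were also searched on both strands for letters bound by E2F factors (TTTCCCGC, TTTGGCGC, TTTCGCGC or TTTGCCGC), since EZH2 and EED are known E2F targets in human cells, and for the E-box CACGTG, which the MAX and MGA partners of Pcgf6 recognise. E2F letters were present in 2 of 10 regions, those of Ezh2 and Suz12, and in 4.39% of all 10280 promoters. The stretches, in capitals within their flanks, are chr6:47595009-47595038 on the minus strand for Ezh2, where the match begins 3 bases after the start, and chr11:79992876-79992905 on the plus strand for Suz12, where it begins 219 bases before it.
Ezh2: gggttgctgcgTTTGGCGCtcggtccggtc
Suz12: cgacccctcatTTTCCCGCgaattcagttc
The E-box was in 0 of 10 regions and in 10.5% of all promoters. These letter matches describe the windows and say nothing of binding.

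**Figure D1:**
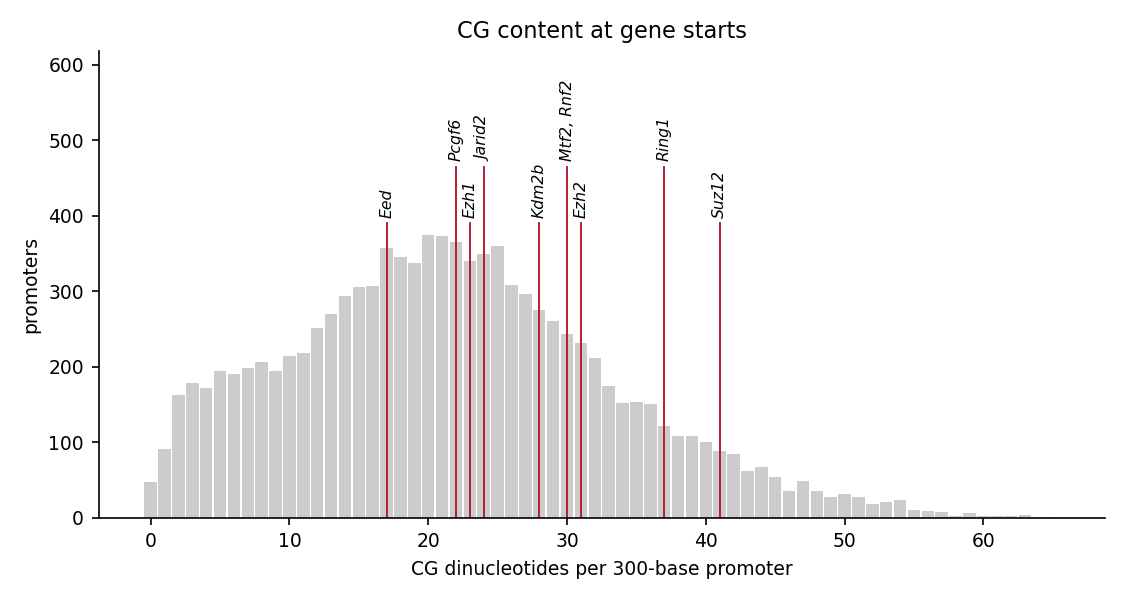
Number of CG dinucleotides per 300-base start region (x axis) against the number of promoters (y axis, grey bars) for 10280 genes measured in all tables. Red lines mark the 10 Polycomb genes, of which Eed with 17 is the lowest and Suz12 with 41 the highest.

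The deposited tables hold fold changes and mean counts but no values per library. Group means of normalized counts were therefore rebuilt by subtraction from the 4 table means, which gives a mean for the 2 clones, a value for the H3f3b A/A dual line alone (1 library), and means for the single-targeted and wildtype groups. Rebuilt values carry no error, and every statement on a difference rests on the authors' deposited adjusted p, called at under 0.05. Depth per library is unknown. Summed over genes, the mean counts came to 1.26e+07 for dual-targeted with wildtype libraries, and to 1.08e+07 for single-targeted with wildtype libraries. All 12 embryonic stem cell markers, among them Pou5f1, Sox2 and Nanog, were measured, and their rebuilt counts summed to 26950 in dual-targeted, 23217 in single-targeted and 22297 in wildtype cells. In dual-targeted against wildtype cells 7 of the 12 were called higher and 0 lower, beside 10.8% and 10.1% of all genes. Their median log2 fold change there was 0.58. Of 22 markers of other cell types, 12 were measured. The 11 found in every table summed to 5212 in dual-targeted, 7014 in single-targeted and 9869 in wildtype cells, a sum in which Fn1 is the main part. Without Fn1 the sums were 727 in dual-targeted, 471 in single-targeted and 493 in wildtype cells. The part of these shifts in the results was not tested. In bulk RNA, fewer cells of a type and less RNA per cell cannot be told apart. Among genes with mean counts of at least 50, the median log2 fold change in dual-targeted against wildtype cells was -0.32 on chromosome 8 and -0.25 on chromosome 14, and 0 of the 10 Polycomb genes lie on either.

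Dual-targeted lines were set against wildtype to see what differed with 3 of 4 alleles mutant. In that comparison Ezh1, which encodes the less active of the PRC2 methyltransferases, fell (fold change 0.529), while Eed, the subunit that reads the PRC2 mark and stimulates the enzyme, and Jarid2, an accessory subunit that helps place PRC2 on chromatin, rose (fold changes 1.55 and 1.29). Of the 10 genes, 2 were higher and 1 lower in the authors' deposited table, and 7 were not called. Over all 16493 genes tested 20.9% were called, 10.8% higher and 10.1% lower, beside 3 of 10 Polycomb genes, and 32.7% had an unadjusted p under 0.05, beside the same 3 of 10. With 10 genes these shares are near the background. The median log2 fold change of the 10 genes was -0.07, beside 0.01 over all genes.

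**Figure D2:**
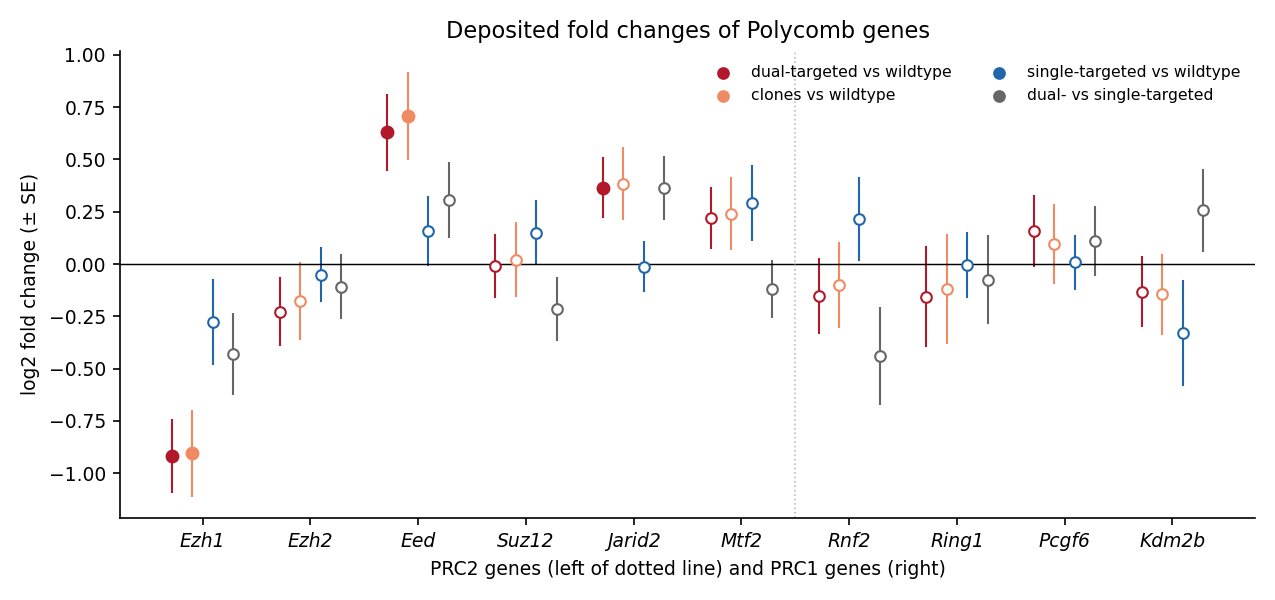
Log2 fold change with its standard error (y axis) for the 10 genes (x axis) in the 4 authors' deposited tables, in colour. Filled points have an adjusted p under 0.05: Ezh1 at -0.92, Eed at 0.63 and Jarid2 at 0.37 in dual-targeted against wildtype cells, and Ezh1 at -0.90 and Eed at 0.71 in the clones.

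Ezh1 (chromosome 11, 101191115 to 101226463, minus strand, GRCm38) had rebuilt means of 432 normalized counts in the clones, 436 in the H3f3b A/A dual line, 624 in single-targeted cells and 849 in wildtype cells. The clones and the other dual-targeted line were nearly level, and the single-targeted mean lay between them and wildtype. These means come from tables scaled to put the median gene of each group level with wildtype. With no scale between tables, the log2 ratios of Ezh1 to wildtype were -0.97 in the clones and -1.64 in that line, which were then not level. The authors' deposited table gave Ezh1 a log2 change of -0.92 ± 0.18 (SE) in dual-targeted against wildtype cells (adjusted p = 1.36e-06, DESeq2). Only 4.59% of genes in that table had a lower fold change. In the clones alone the authors' deposited table gave Ezh1 -0.90 ± 0.21 (adjusted p = 5.78e-05). In single-targeted lines Ezh1 stood at -0.28 ± 0.20 in the authors' deposited table, which was not called (p = 0.028, adjusted p = 0.289). Set directly against single-targeted lines, dual-targeted lines had -0.43 ± 0.20 for Ezh1 in the authors' deposited table, also not called (adjusted p = 0.0665). The test between dual- and single-targeted lines therefore missed the threshold for Ezh1.

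Ezh2 (chromosome 6, 47530139 to 47595341, minus strand), the main H3K27 methyltransferase of dividing cells, had rebuilt means of 1462 in the clones, 1317 in the H3f3b A/A dual line, 1577 in single-targeted and 1707 in wildtype cells. All mutant values lay below wildtype, but by little. The authors' deposited table gave Ezh2 -0.23 ± 0.16 in dual-targeted (adjusted p = 0.294) and -0.05 ± 0.13 in single-targeted cells (adjusted p = 0.888), neither called. The difference between the Ezh1 and Ezh2 fold changes was not tested, since the tables give no values per library.

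Eed (chromosome 7, 89954654 to 89980983, minus strand) had rebuilt means of 3100 in the clones, 2536 in the H3f3b A/A dual line, 2197 in single-targeted and 1811 in wildtype cells. Every mutant value was above wildtype, the clones most. The authors' deposited table gave Eed a log2 fold change of 0.63 ± 0.19 in dual-targeted cells (adjusted p = 0.00225), and 0.71 ± 0.21 in the clones (adjusted p = 0.00245). For single-targeted cells the authors' deposited table gave 0.16 ± 0.17 for Eed (adjusted p = 0.588). Dual-targeted against single-targeted cells stood at 0.31 ± 0.18 for Eed in the authors' deposited table (p = 0.0297, adjusted p = 0.165). No source used here says whether reads were counted by strand, so Eed cannot be fully separated from E230029C05Rik, which overlaps it on the opposite strand and had 0.54 ± 0.28 (mean count 86.8, adjusted p = 0.0688), per the authors' deposited table for dual-targeted against wildtype cells. Gm45120 overlaps Eed on its own strand, where counting by strand would not separate them. It had 0.43 ± 0.34 (mean count 68.1, adjusted p = 0.194), per the same authors' deposited table.

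Suz12 (chromosome 11, 79993106 to 80034123, plus strand), the scaffold of the PRC2 core, had rebuilt means of 2428 in the clones, 2240 in the H3f3b A/A dual line, 2864 in single-targeted and 2394 in wildtype cells. The dual-targeted values lay on either side of wildtype. The authors' deposited table gave Suz12 -0.01 ± 0.15 in dual-targeted cells (adjusted p = 0.971) and 0.15 ± 0.16 in single-targeted cells (adjusted p = 0.596).

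Jarid2 (chromosome 13, 44729474 to 44921643, plus strand) had rebuilt means of 11188 in the clones, 10494 in the H3f3b A/A dual line, 8094 in single-targeted and 8324 in wildtype cells. The dual-targeted values were above the other groups, which lay close together. The authors' deposited table gave Jarid2 0.37 ± 0.15 in dual-targeted cells (adjusted p = 0.0367), and -0.01 ± 0.12 in single-targeted cells (adjusted p = 0.975). Dual-targeted against single-targeted cells stood at 0.36 ± 0.15 for Jarid2 in the authors' deposited table (p = 0.00469, adjusted p = 0.0591), short of the threshold. In the clones without the H3f3b A/A dual line the fold change was as large, 0.39 ± 0.17, but the call was lost (adjusted p = 0.069), per the authors' deposited table.

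Mtf2 (chromosome 5, 108065674 to 108109004, plus strand), an accessory subunit that binds unmethylated CG-rich DNA, had rebuilt means of 5147 in the clones, 4814 in the H3f3b A/A dual line, 5614 in single-targeted and 4254 in wildtype cells. Every mutant value lay above wildtype. None of its comparisons was called: the authors' deposited table gave Mtf2 0.22 ± 0.15 in dual-targeted (adjusted p = 0.26) and 0.29 ± 0.18 in single-targeted cells (p = 0.0189, adjusted p = 0.235).

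**Figure D3:**
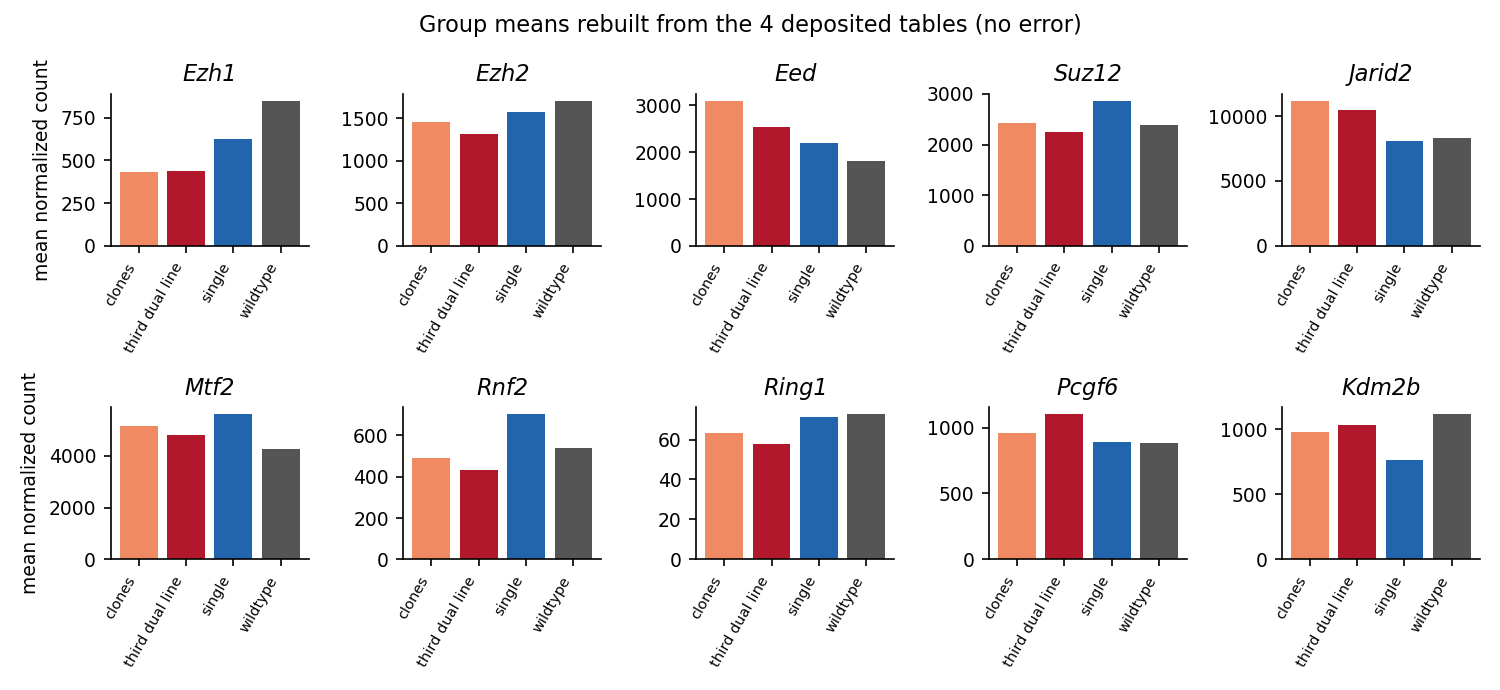
Mean normalized count (y axis, from 0) rebuilt from the deposited tables for each of the 10 genes, with bars for the 2 clones, the H3f3b A/A dual line (labelled on the x axis as the third dual line), the single-targeted group and wildtype. Ezh1 stands at 432, 436, 624 and 849 in that order, and bars carry no error.

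Of the PRC1 genes, 0 of 4 were called in any of the comparisons. Over all genes 20.9% were called in dual-targeted, 2.96% in single-targeted and 19.3% in clone against wildtype cells, and 7.06% in dual- against single-targeted lines. With 4 genes, 0 called is near these shares, and a difference from the PRC2 genes was not tested. Rnf2 (chromosome 1, 151458004 to 151500955, minus strand), the main ubiquitin ligase of PRC1 in embryonic stem cells, had rebuilt means of 490 in the clones, 432 in the H3f3b A/A dual line, 702 in single-targeted and 539 in wildtype cells. The single-targeted mean was the highest and the dual-targeted values the lowest. The authors' deposited table of dual-targeted against single-targeted lines gave Rnf2 -0.44 ± 0.23 (p = 0.0104, adjusted p = 0.0942). Against wildtype the authors' deposited table gave Rnf2 -0.15 ± 0.18 in dual-targeted (adjusted p = 0.555) and 0.22 ± 0.20 in single-targeted cells (adjusted p = 0.437). Rnf2 is overlapped by Trmt1l on the opposite strand and by Gm36527 on its own strand. In the authors' deposited table for dual-targeted against wildtype cells Gm36527 had a mean count of 650, beside 505 for Rnf2, so the counting could split reads between them.

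Ring1 (chromosome 17, 34020792 to 34024680, minus strand), the other ubiquitin ligase, had rebuilt means of 63.5 in the clones, 57.6 in the H3f3b A/A dual line, 71.2 in single-targeted and 72.6 in wildtype cells. The authors' deposited table gave Ring1 -0.16 ± 0.24 in dual-targeted (adjusted p = 0.617) and -0.0044 ± 0.16 in single-targeted cells (adjusted p = 0.988). Its standard error in dual-targeted cells was the largest of the 10.

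Pcgf6 (chromosome 19, 47033617 to 47050906, minus strand), which defines a variant PRC1 that also holds Mga, Max, E2f6 and L3mbtl2, had rebuilt means of 959 in the clones, 1101 in the H3f3b A/A dual line, 887 in single-targeted and 884 in wildtype cells. The authors' deposited table gave Pcgf6 0.16 ± 0.17 in dual-targeted (adjusted p = 0.513) and 0.01 ± 0.13 in single-targeted cells (adjusted p = 0.985).

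Kdm2b (chromosome 5, 122870665 to 122989823, minus strand), whose CxxC zinc finger brings a variant PRC1 to unmethylated CG-rich DNA, had rebuilt means of 982 in the clones, 1031 in the H3f3b A/A dual line, 766 in single-targeted and 1117 in wildtype cells. Here the single-targeted mean was the lowest. The authors' deposited table gave Kdm2b -0.33 ± 0.25 in single-targeted cells (p = 0.019, adjusted p = 0.235) and -0.13 ± 0.17 in dual-targeted cells (adjusted p = 0.589). Dual-targeted against single-targeted lines stood at 0.26 ± 0.20 for Kdm2b in the authors' deposited table (adjusted p = 0.27). Kdm2b overlaps Rnf34 and A930024E05Rik on the opposite strand and Gm43411 on its own.

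Single-targeted lines carry 2 mutant alleles and were compared with the same wildtype cells. By the authors' DESeq2 test, none (0 of 10) of the Polycomb genes was called in the authors' deposited table, beside 2.96% of 15030 genes tested (1.49% higher and 1.47% lower), and 3 had an unadjusted p under 0.05 (Ezh1, Mtf2 and Kdm2b), beside 12.4% of all genes. Their median log2 fold change was 0.00, as over all genes. In dual-targeted against single-targeted lines, by the same test, 0 of 10 were called in the authors' deposited table, beside 7.06% of 13141 (4.37% higher and 2.69% lower), and 4 had an unadjusted p under 0.05 (Ezh1, Eed, Jarid2 and Rnf2), beside 20% of all genes. In the clones against wildtype 2 of 10 were called in the authors' deposited table, Ezh1 lower and Eed higher, beside 19.3% of 15640 (9.05% higher and 10.3% lower), and 30.4% of all genes had an unadjusted p under 0.05, beside 3 of 10. These comparisons share libraries, so their values are not independent. The rebuilt means of the clones and of the H3f3b A/A dual line lay on the same side of wildtype for 9 of 10 genes, Suz12 being the exception, and for 7 of 10 with no scale between tables, where Jarid2, Mtf2 and Pcgf6 were the exceptions. The single-targeted and dual-targeted means lay on the same side for 7 of 10, with Suz12, Jarid2 and Rnf2 apart, and for 6 of 10 with no scale, with Pcgf6 apart as well.

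The genes lie on 8 chromosomes and range in length from 3.89 kb for Ring1 to 192 kb for Jarid2. In dual-targeted against wildtype cells the median log2 fold change of protein-coding genes was 0.18 in the shortest decile and -0.13 in the longest. Jarid2 is in the longest decile, and its log2 fold change was 0.50 above the median of that decile. Ring1 is in the shortest decile and lay below it by a log2 difference of -0.33. For Ezh1 and Eed the medians of genes of like length were -0.02 and 0.01, so their differences from such genes were -0.89 and 0.62. Measured genes next to the 10, taken as the nearest 2 on each side, numbered 40, and 9 of these were called in dual-targeted against wildtype cells in the authors' deposited table, beside 20.9% of all genes. Beside Ezh1, Plekhh3 stood at -0.90 ± 0.57 (mean count 21.3, adjusted p = 0.0471) and Vps25 at -0.07 ± 0.27 (adjusted p = 0.834), per the authors' deposited table. Beside Jarid2, Dtnbp1 was lower at -0.50 ± 0.22 (adjusted p = 0.0416), per the authors' deposited table, while Jarid2 was higher. Of the 10 genes, 4 (Eed, Mtf2, Rnf2 and Kdm2b) overlap another measured gene.

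**Figure D4:**
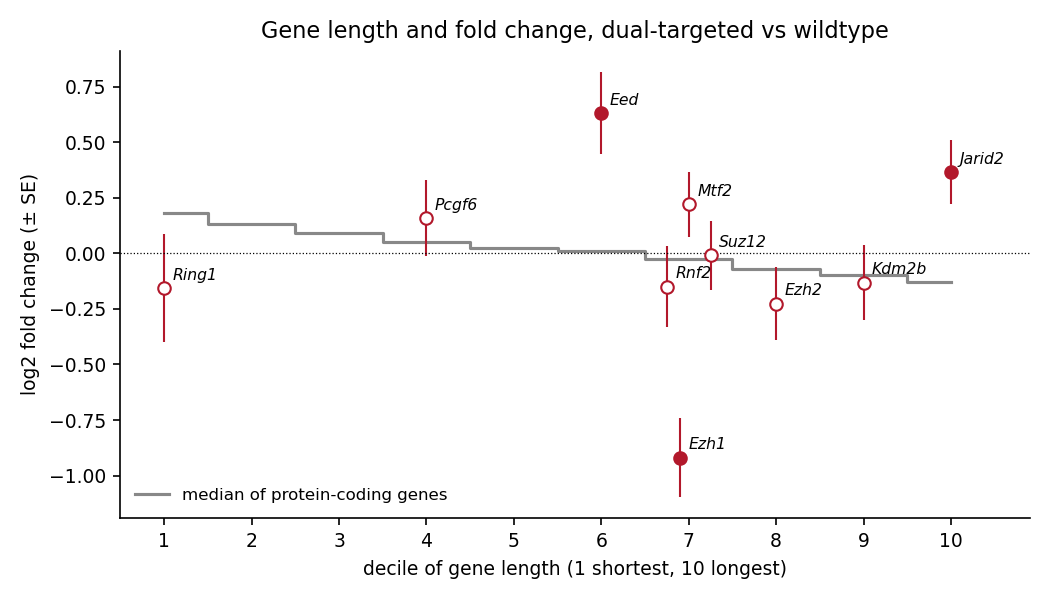
Log2 fold change with standard error in dual-targeted against wildtype cells (y axis) by decile of gene length among protein-coding genes (x axis) for the 10 Polycomb genes, filled where the adjusted p was under 0.05. The grey steps are the medians of all protein-coding genes, which run down to -0.13 in the longest decile, where Jarid2 stands at 0.37.

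The genes whose pattern was most like that of Ezh1 were sought among 9787 named genes with mean counts of at least 50 in every table, by the Euclidean distance between log2 ratios to wildtype of the rebuilt single-targeted, clone and H3f3b A/A dual line means, which is 3 conditions. The nearest were Crebl2 at a distance of 0.0576, Herpud1 at 0.0588 and Stk38 at 0.0603. Herpud1 lies on chromosome 8, where the median was -0.32. Stk38 had means of 2481 in the clones, 2608 in the H3f3b A/A dual line, 3759 in single-targeted and 4966 in wildtype cells.

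Of 9 other PRC2 genes 8 were measured in dual-targeted against wildtype cells. Of these 3 rose and 0 fell in the authors' deposited table, beside 10.8% of all genes higher and 10.1% lower, and 7 of 8 had a positive fold change, with a median log2 fold change of 0.32 beside 0.01 over all genes. Epop, which links PRC2 to the elongin complex, had rebuilt means of 602 in the clones, 624 in the H3f3b A/A dual line, 304 in single-targeted and 206 in wildtype cells. The authors' deposited table gave Epop 1.51 ± 0.23 in dual-targeted cells (adjusted p = 3.80e-10). Against single-targeted lines Epop stood at 0.89 ± 0.24 in the authors' deposited table (adjusted p = 0.00265), so its level differed between dual- and single-targeted lines. Epop is 2.31 kb long, and genes of like length had a median of 0.18.

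Aebp2, which partners Jarid2 within PRC2, had rebuilt means of 2080 in the clones, 2177 in the H3f3b A/A dual line, 1915 in single-targeted and 1030 in wildtype cells. All mutant values were well above wildtype. The authors' deposited table gave Aebp2 1.00 ± 0.17 in dual-targeted (adjusted p = 1.82e-08) and 0.84 ± 0.19 in single-targeted cells (adjusted p = 1.51e-04), the only gene of these Polycomb lists called with 2 mutant alleles. Between dual- and single-targeted lines Aebp2 differed by 0.10 ± 0.14 in the authors' deposited table (adjusted p = 0.654). Rbbp7, a histone-binding subunit shared with other complexes, rose by 0.60 ± 0.16 in dual-targeted cells (adjusted p = 9.57e-04), per the authors' deposited table.

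Of 13 other canonical PRC1 genes 11 were measured, and 0 were called in dual-targeted cells in the authors' deposited table, where 2 had an unadjusted p under 0.05, beside 20.9% of all genes called and 32.7% with such a p. Their median log2 fold change was -0.11. Of 19 other variant PRC1 genes 1 was higher and 2 lower in the authors' deposited table, beside 10.8% of all genes higher and 10.1% lower, with a median of -0.04. Auts2, a subunit of variant PRC1 with roles in neural development, had rebuilt means of 603 in the clones, 796 in the H3f3b A/A dual line, 1028 in single-targeted and 1598 in wildtype cells. The authors' deposited table gave Auts2 -1.19 ± 0.23 in dual-targeted cells (adjusted p = 1.21e-06). Auts2 is 1106 kb long, and the longest length decile had a median of -0.13. Of the partners of Pcgf6, E2f6 rose and Mga fell, with E2f6 at 0.58 ± 0.22 (adjusted p = 0.0176) and Mga at -0.41 ± 0.18 (adjusted p = 0.0474), per the authors' deposited table. In the clones alone both calls were lost at folds about as large, 0.55 for E2f6 (adjusted p = 0.0524) and -0.37 for Mga (adjusted p = 0.131) in the authors' deposited table. Max at -0.08 (adjusted p = 0.758) and L3mbtl2 at 0.10 (adjusted p = 0.711) were not called in dual-targeted cells, per the authors' deposited table.

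The Polycomb deubiquitinase removes ubiquitin from H2A and so acts against PRC1. Of its 11 genes 1 was higher and 3 were lower in dual-targeted cells in the authors' deposited table, beside 10.8% of all genes higher and 10.1% lower, with a median of -0.10. Ogt, which adds N-acetylglucosamine to many nuclear proteins, had rebuilt means of 1408 in the clones, 1716 in the H3f3b A/A dual line, 3067 in single-targeted and 3399 in wildtype cells. The dual-targeted values were far below both other groups. The authors' deposited table gave Ogt -1.11 ± 0.20 in dual-targeted against wildtype cells (adjusted p = 4.60e-07) and -0.95 ± 0.20 against single-targeted lines (adjusted p = 1.46e-04). The forkhead factor gene Foxk2 fell by 0.80 ± 0.22 (adjusted p = 8.46e-04) and Asxl2, a cofactor of the enzyme, by 0.49 ± 0.19 (adjusted p = 0.0259), per the authors' deposited table. In the clones alone the Asxl2 call was lost, at -0.48 ± 0.23 (adjusted p = 0.0632) in the authors' deposited table. Asxl2 also differed from single-targeted lines, at -0.56 ± 0.24 (adjusted p = 0.0402), per the authors' deposited table. Bap1, the enzyme itself, rose by 0.49 ± 0.21 (adjusted p = 0.0375), per the authors' deposited table. Bap1 lies on chromosome 14, where the median was -0.25. Of the 3 demethylases of H3K27, Kdm6a, Kdm6b and Uty, 0 were called in dual-targeted cells, and 0 had an unadjusted p under 0.05, in the authors' deposited table. Over all genes 20.9% were called and 32.7% had such a p, so 0 of 3 is near the background. In the clones alone Uty, the copy on the Y chromosome, was called lower at -0.28 ± 0.57 (adjusted p = 0.0207) in the authors' deposited table. Uty had rebuilt means of 45.9 in the clones, 668 in the H3f3b A/A dual line, 606 in single-targeted and 592 in wildtype cells. These means give a log2 ratio of clones to wildtype of -3.69, far below the deposited fold change, which is read as shrunken. Over 5 genes of the Y chromosome with mean counts of at least 50, the median deposited log2 fold change in the clones was -0.38. That median is on the deposited scale, on which Uty stood at -0.28, and is not comparable with the rebuilt ratio of -3.69.

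Among 79 developmental genes known as Polycomb targets 25 were measured, and 24 were in the authors' deposited table of dual-targeted and wildtype cells, where 5 were higher and 1 lower. Their median log2 fold change was 0.20, beside 0.01 over all genes, and 6 of 24 called stands beside 20.9% of all genes. Sox7, 1 of the 5 higher, had a mean count of only 7.29 there, at 1.57 ± 1.11 (adjusted p = 0.0319), per the authors' deposited table. It was not listed in single-targeted or in clone against wildtype cells, where 21 and 22 targets were listed. Whether the choice of genes listed in each table shifts this median or these calls was not tested. Cdkn1c, an imprinted inhibitor of cyclin-dependent kinases, had rebuilt means of 126 in the clones, 110.2 in the H3f3b A/A dual line, 65.7 in single-targeted and 27.3 in wildtype cells. The authors' deposited table gave Cdkn1c 2.01 ± 0.34 in dual-targeted cells (adjusted p = 2.65e-08). Id1, an inhibitor of bHLH factors induced by BMP, rose by 1.34 ± 0.36 (adjusted p = 3.32e-04), and Nodal, a ligand of the TGF-beta family, by 0.72 ± 0.24 (adjusted p = 0.00464), per the authors' deposited table. Against single-targeted lines Id1 stood at 1.15 ± 0.63 (adjusted p = 0.0361) and Nodal at 0.52 ± 0.23 (adjusted p = 0.0475), per the authors' deposited table. In single-targeted against wildtype cells 21 targets were listed in the authors' deposited table, of which 17 had an adjusted p and 0 were called, beside 2.96% of all genes, and 5 had an unadjusted p under 0.05, beside 12.4% of all genes.

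**Figure D5:**
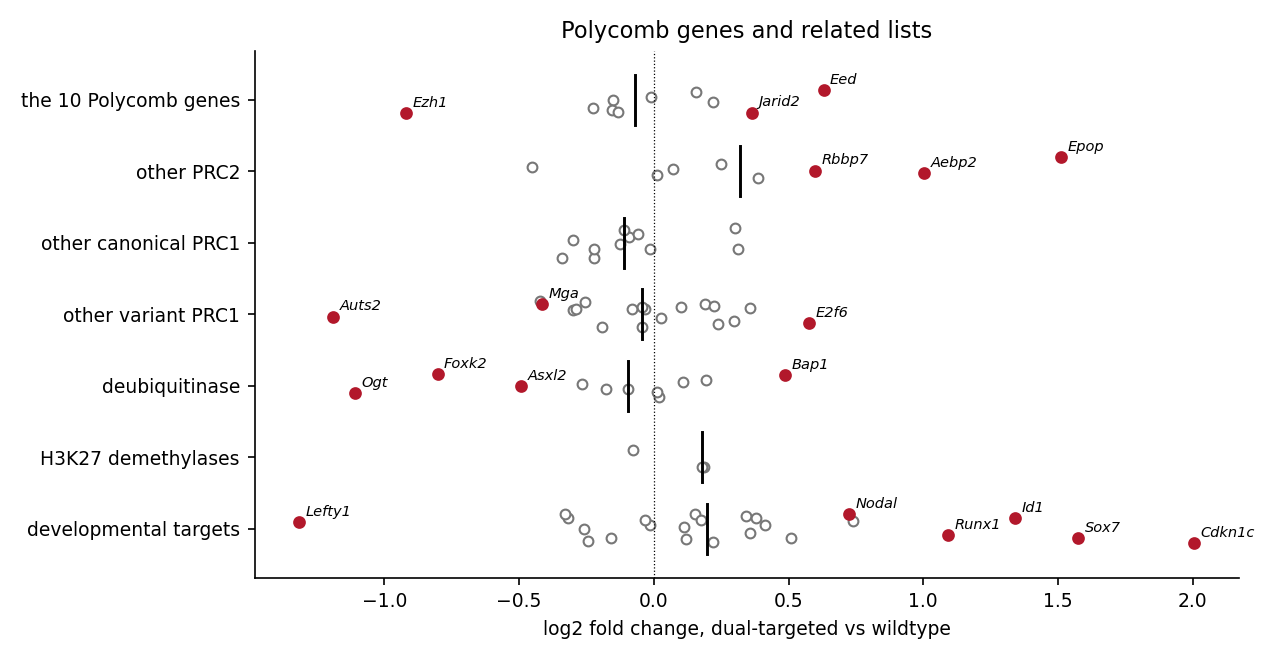
Log2 fold change in dual-targeted against wildtype cells (x axis) for the 10 Polycomb genes and the related lists (rows), a point per gene. In the authors' deposited table, red named points passed an adjusted p of 0.05 and white points did not, and black bars are list medians, 0.32 for the other PRC2 subunits and -0.11 for the other canonical PRC1 subunits.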

How the data were processed

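The values come from 4 DESeq2 tables that the authors fitted one by one. Per the file headers, each gives a gene's mean normalized count, a signal the authors averaged over libraries. Per the file headers, each also gives the log2 fold change with its standard error, the p-value and the adjusted p-value from the authors' fit. Per the submitters' processing notes, the tools were deepTools, DESeq2, featureCounts, SAMtools and STAR, with mm10 and GRCm38.p6 as builds. Versions, the counted feature and the use of strand are not given in the sources used here. For that reason overlapping genes are uncertain, and counts of different genes are set side by side only for genes that overlap.

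The deposited fold changes are read as shrunken, since for 100% of called genes with a p above 0 the fold change over its error was smaller than the p implies. An empty adjusted p was kept empty. No new test was run. Rebuilt means solve the 4 table means for the groups. The first table (dual-targeted with wildtype) was left as it is. Scales of 0.978 for single-targeted with wildtype, 1.05 for dual-targeted with single-targeted and 0.958 for the clones with wildtype put the median gene of each group level with wildtype. For 100% of called genes averaging 50 counts or more (2726 in dual-targeted against wildtype, 387 in single-targeted against wildtype, 885 in dual- against single-targeted and 2504 in the clones), rebuilt means had the sign of the deposited fold change, which is the first-named group over the second. Rebuilding was tested on simulated data, where the median absolute log2 error was largest in the single-targeted group, at 0.00065. In those data few genes changed, only in dual-targeted libraries and alike in all of them. The median gene was thus level by design, so the test cannot show whether the scales suit the real libraries. P-values measure the spread between these libraries, and the labels do not say that wildtype libraries came from separate cultures.

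The 10 genes, the lists and the alternatives were chosen with earlier results of these data known. Named beyond the 10 were up to 3 genes per list called in dual-targeted against wildtype cells by lowest p, and the 3 genes most like Ezh1. Up to 2 per list were also named from each of single-targeted against wildtype and dual- against single-targeted lines. The comparison of the clones was not used for naming by rule. The remaining called Bap1 and the overlapping or adjoining genes were named after their values were seen. Listed genes found in no table, 54 developmental targets among them, were not analysed here. Positions come from GENCODE M21, which held 98.6% of symbols, and start regions from RefSeq, GRCm38.p6, which held all 10 genes. Software was matplotlib 3.10.9, scipy 1.17.1, pandas 2.3.3 and numpy 2.4.6 under Python 3.11.15. Alternatives were other thresholds, adjustment over other gene sets, medians taken out, the H3f3b A/A dual line left out and other scales.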

Additional observations from a re-analysis of the deposited data

Results flagged for a closer look

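Of the Polycomb genes and named genes of the lists, 5 differed between dual-targeted and single-targeted lines, by the direct comparison of these groups in the authors' deposited table at an adjusted p under 0.05. Over all 13141 genes tested 7.06% were called. Being called in this same comparison was part of the rule for naming genes, and all 5 met it, so their number is not a result. The log2 fold change, dual-targeted over single-targeted, was 0.89 for Epop, 1.15 for Id1 and 0.52 for Nodal, and it was -0.95 for Ogt and -0.56 for Asxl2. None of the 10 Polycomb genes was among the 5, and the lowest adjusted p of the 10 in that authors' deposited table was 0.0591, for Jarid2.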

How the results depend on the processing

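With the adjusted p threshold raised to 0.1, 3 of the 10 Polycomb genes (Ezh1, Jarid2 and Rnf2) were called in dual-targeted against single-targeted lines, in place of 0. At 0.01, 9 genes of the related lists were called in dual-targeted against wildtype cells, in place of 16. Calls over all genes also change with the threshold, and their shares at 0.1 and 0.01 were not computed. These changes in count are therefore not read as results about Polycomb genes. Without the H3f3b A/A dual line, that is in the table of the clones, 2 of the 10 and 18 of the related genes were called, beside 19.3% of all genes. There Jarid2 lost its call at a log2 fold change of 0.39, and the median of the 10 was -0.04. Values without the other libraries could not be had, since the tables hold no values per library. Adjusting over every gene with a p, or over genes with mean counts of at least 50, changed none of the counts of called Polycomb genes. With no scale between tables, the log2 ratios to wildtype of the 10 genes moved by a median of -0.18 in the dual-targeted group and -0.14 in the single-targeted group, and by -0.47 in the H3f3b A/A dual line, and 13 rather than 18 of the rebuilt ratios were above 0. No paired analysis was possible because the tables give no values per library and the replicate numbers of the mutant lines name different genotypes. Shrinkage differs between tables, and depth per library is unknown.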

Other observations

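For some Polycomb genes, named after their values were seen, the rebuilt means of the clones and of the H3f3b A/A dual line lay on opposite sides of wildtype with the tables scaled, and values without scales were not computed for these genes. The differences between the clones and that line were not tested, since it is a single library. Pcgf5, a variant PRC1 subunit on chromosome 19, had rebuilt means of 104 normalized counts in the clones and 260 in the H3f3b A/A dual line, with 224 in single-targeted and 194 in wildtype cells. The authors' deposited table of the clones gave Pcgf5 -0.76 ± 0.29 (adjusted p = 0.012), while the authors' deposited table of all dual-targeted lines gave -0.19 ± 0.27 (adjusted p = 0.545). Scmh1, a canonical PRC1 subunit, had 170 in the clones, 406 in the H3f3b A/A dual line, 400.0 in single-targeted and 289 in wildtype cells, and was not called in any table.

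Lefty1, a Nodal antagonist among the developmental targets, had rebuilt means of 120.04 in the clones, 442 in the H3f3b A/A dual line, 188 in single-targeted and 872 in wildtype cells. The authors' deposited table of the clones gave Lefty1 -2.80 ± 0.29 (adjusted p listed as 0), and that of all dual-targeted lines -1.32 ± 0.87 (adjusted p = 0.0284). H3f3b, a mutated gene itself, stood at 4855 in the clones, 356 in the H3f3b A/A dual line, 1849 in single-targeted and 2511 in wildtype cells.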
